A study of Arabidopsis thaliana with 20 samples.

Results

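Peak lists of BCL7A and BCL7B, a pair of homologous proteins of plant SWI/SNF complexes, were compared region by region in Arabidopsis thaliana seedlings that carried BRM, to ask where on the chromosomes the homologs differ. All nuclear peaks of 4 libraries, 2 of each protein, were merged into regions wherever they shared 1 bp or more, which gave 20296 regions outside the transgene loci, against 21127 regions when all 12 lists of the series were merged. Regions with a peak in both libraries of BCL7A and in no library of BCL7B numbered 551 (2.71% of the regions) and are called BCL7A-only here. The reverse pattern, BCL7B-only, was met by 340 regions (1.68%). A peak in all 4 libraries marked 14570 shared regions, and the remaining 4835 regions had a peak in only 1 library of at least 1 of the proteins. The membership of all these sets rests on presence of a peak alone, so the absence of the other protein is the rule itself and not a result.

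SWI/SNF complexes are ATP-driven machines that slide or evict nucleosomes and thereby open promoters. BRM is one of their ATPases in plants, and it is known for its part in leaf, shoot and flower development and in the passage from juvenile to adult leaves. BCL7 proteins are small accessory subunits that mammalian complexes hold as well. How the 2 plant homologs divide their sites between them is the question that this comparison addresses.

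The BCL7A plants carried pBCL7A:BCL7A-GFP in the bcl7a mutant, and the BCL7B plants carried pBCL7B:BCL7B-GFP in the bcl7b mutant. Each tagged protein thus came from its own promoter in the absence of its own untagged copy, the other homolog and BRM were unaltered, and no group was wild type. In the groups named brm-1 the same transgenes stood in plants that also carried brm-1, a null allele of BRM, and the BRM group carried pBRM:BRM-GFP in brm-1. A further BRM group carried pBRM:BRM-GFP in plants with brm-1 and the bcl7a and bcl7b mutations. Chromatin of whole seedlings aged 14 days was precipitated with an antibody against GFP, so a site occupied in few cells and a site occupied weakly in many cannot be told apart. The libraries of a group are described by the study as biological replicates, each made from a pool of seedlings.

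The BCL7A lists held 18254 and 18100 nuclear peaks, and the BCL7B lists held 17429 and 17711. By an exact permutation test (two-sided) the mean difference of 607 peaks had p = 0.333, which is also the lowest p that groups of this size can reach. The sequencing depth implied by the lists was 9.07 and 9.02 M fragments for BCL7A against 7.23 and 8.06 M for BCL7B, and the median fold enrichment of a peak over its background was 3.09 and 3.12 against 3.38 and 3.39. BCL7A thus had the deeper libraries with more peaks, and BCL7B the higher enrichment. Depth and protein cannot be told apart in these groups. The sizes of the sets moved with the limit on peaks: with equal numbers of the strongest peaks from each list they were 428 BCL7A-only and 459 BCL7B-only, and with peaks of at least 3-fold enrichment 164 and 786. With 1 library left out, where the other library of that protein alone decided presence and absence, they were 1020 to 1227 and 751 to 788. Peak strength was therefore compared by rank, as the percentile of the fold enrichment among all nuclear peaks of the same library, where 100 is the strongest peak.

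The sequence features that the regions of either protein shared were described in windows of 300 bp centred on the summit, the highest point of a peak, and each motif was searched on both strands. The site II element, TGGGCC or GGCCCA, is a promoter element of plant growth genes that TCP transcription factors can bind. It stood in 27.8% of BCL7A-only windows and in 6.76% of BCL7B-only windows, beside 21.2% of shared windows and 20.5% of the windows of all regions. The GA repeat, GAGAGAGA or TCTCTCTC, is a sequence of the kind that BPC proteins can bind. It stood in 12.3% of BCL7A-only and 19.4% of BCL7B-only windows, beside 16.5% of shared windows and 15.6% of all windows. Site II was thus the more frequent in BCL7A-only windows, and the GA repeat in BCL7B-only windows. These motifs were picked from a longer list searched in the same way. In that list TGTCTC, the auxin response element, stood in 16% of BCL7A-only, 24.7% of BCL7B-only and 18.7% of shared windows. AACCGG stood in 10.3%, 5.59% and 11.9% in the same order, and the G-box, CACGTG, in 9.8%, 7.94% and 17%. The remaining motifs are not given here. A match is a description of letters and no evidence of a bound factor. The stretches printed here show these motifs in their context, in capitals, from the highest ranked or most different regions of each set that hold the motif outside annotated exons. They are plus-strand sequence of the RefSeq assembly TAIR10.1, whose nuclear chromosomes are those of TAIR10.

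The first stretches come from BCL7A-only regions with site II (capitals), upstream of genes on the minus strand: AT3G16310, for a protein with a mitotic phosphoprotein domain, at chr3:5528603-5528742 with 2 copies, AT4G28360, for a ribosomal protein of the L22 family, at chr4:14031050-14031179 with 2 copies, and AT1G73230, for a subunit of the nascent polypeptide-associated complex that binds new protein chains at the ribosome, at chr1:27541953-27542063 with 1 copy.
AT3G16310: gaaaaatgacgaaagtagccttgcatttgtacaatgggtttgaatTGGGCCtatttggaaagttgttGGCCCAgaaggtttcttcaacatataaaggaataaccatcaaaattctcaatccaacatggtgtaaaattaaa
AT4G28360: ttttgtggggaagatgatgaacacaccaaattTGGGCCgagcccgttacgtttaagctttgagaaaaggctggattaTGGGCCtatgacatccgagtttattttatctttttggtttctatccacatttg
AT1G73230: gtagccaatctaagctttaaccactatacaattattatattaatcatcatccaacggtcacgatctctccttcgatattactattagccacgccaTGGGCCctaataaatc
The next stretches, also with 1 copy of site II each, come from shared regions that ranked higher for BCL7A, upstream of RPN5B (a subunit of the proteasome lid) at chr5:25896712-25896851 and of ATMIN7 (a regulator of vesicle traffic in immunity) at chr3:15245316-15245455.
RPN5B: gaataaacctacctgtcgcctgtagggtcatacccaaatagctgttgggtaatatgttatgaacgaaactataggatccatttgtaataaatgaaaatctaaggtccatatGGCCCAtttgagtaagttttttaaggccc
ATMIN7: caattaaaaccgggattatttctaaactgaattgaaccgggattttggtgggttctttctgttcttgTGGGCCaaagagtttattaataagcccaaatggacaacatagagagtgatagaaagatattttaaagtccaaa
For BCL7B, the GA repeat (capitals) is shown from BCL7B-only regions upstream of DRB2, a double-stranded RNA-binding protein of small RNA pathways, at chr2:12137650-12137789 with 2 copies and of AT4G29560, annotated as a FANCE protein, at chr4:14506016-14506155 with 1 copy. It is also shown from shared regions that ranked higher for BCL7B, downstream of the receptor-like kinase gene CRK5 at chr4:12117272-12117411 and upstream of MIR166d at chr5:2840066-2840205, with 1 copy each.
DRB2: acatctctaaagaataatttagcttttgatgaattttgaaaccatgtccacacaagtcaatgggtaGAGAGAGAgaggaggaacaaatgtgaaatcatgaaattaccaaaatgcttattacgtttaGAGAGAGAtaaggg
AT4G29560: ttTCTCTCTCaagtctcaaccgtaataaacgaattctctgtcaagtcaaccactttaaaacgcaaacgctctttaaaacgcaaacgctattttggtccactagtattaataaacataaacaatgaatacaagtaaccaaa
CRK5: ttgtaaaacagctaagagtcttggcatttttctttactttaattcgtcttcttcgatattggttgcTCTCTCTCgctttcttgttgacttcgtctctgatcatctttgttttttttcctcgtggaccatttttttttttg
MIR166d: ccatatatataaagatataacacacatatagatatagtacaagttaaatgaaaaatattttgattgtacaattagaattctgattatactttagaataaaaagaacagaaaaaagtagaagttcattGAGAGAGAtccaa

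BCL7A-only and BCL7B-only regions were weak in their own lists. The median percentile of the 551 BCL7A-only regions was 16.9 and 15.0 in the 2 BCL7A libraries, and that of the 340 BCL7B-only regions was 13.3 and 13.2 in the 2 BCL7B libraries. Shared regions had medians of 59.6 and 59.3 in the BCL7A libraries and of 57.8 and 58.2 in the BCL7B libraries. The sets of a single protein therefore lay mostly near the limit of detection, with median widths of 412 bp and 389 bp against 706 bp for shared regions. A mean percentile above 50 was reached by 17 BCL7A-only and 8 BCL7B-only regions. Of the BCL7A-only regions, 501 had the transcription start site (TSS) of a gene within 2 kb of the summit (497 different genes) and 50 had none. For BCL7B-only regions these numbers were 280 (276 genes) and 60.

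The positions of the sets along genes differed. Summits of 54.8% of BCL7A-only regions lay within 200 bp of a TSS, against 36.2% of BCL7B-only regions and 57.6% of shared regions. The difference between BCL7A-only and BCL7B-only was 18.6 percentage points, with a 95% Newcombe interval from 11.9 to 25 that covers counting error only. BCL7A-only regions were thus placed much like shared regions, while BCL7B-only regions lay more often within genes and far from them. In the transcribed part of a gene, more than 200 bp from any TSS, lay 32.1% of BCL7B-only summits, 14.3% of BCL7A-only summits and 16.1% of shared summits. Coding exons alone held 12.6%, 3.81% and 3.53% in the same order. Distal sites, outside genes and their flanks of 2 kb upstream and 1 kb downstream, held 10.3%, 4.36% and 3.97%. The larger share of summits within 200 bp of a TSS among BCL7A-only regions narrowed to 6.81 points without BCL7A replicate 2 and to 7.26 points without BCL7A replicate 1, where the other BCL7A library alone decided presence and absence. By chromosome, BCL7B-only regions were the more frequent on chromosome 4, with 19.7% against 12.3% of BCL7A-only and 14.9% of shared regions.

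**Figure D1:**
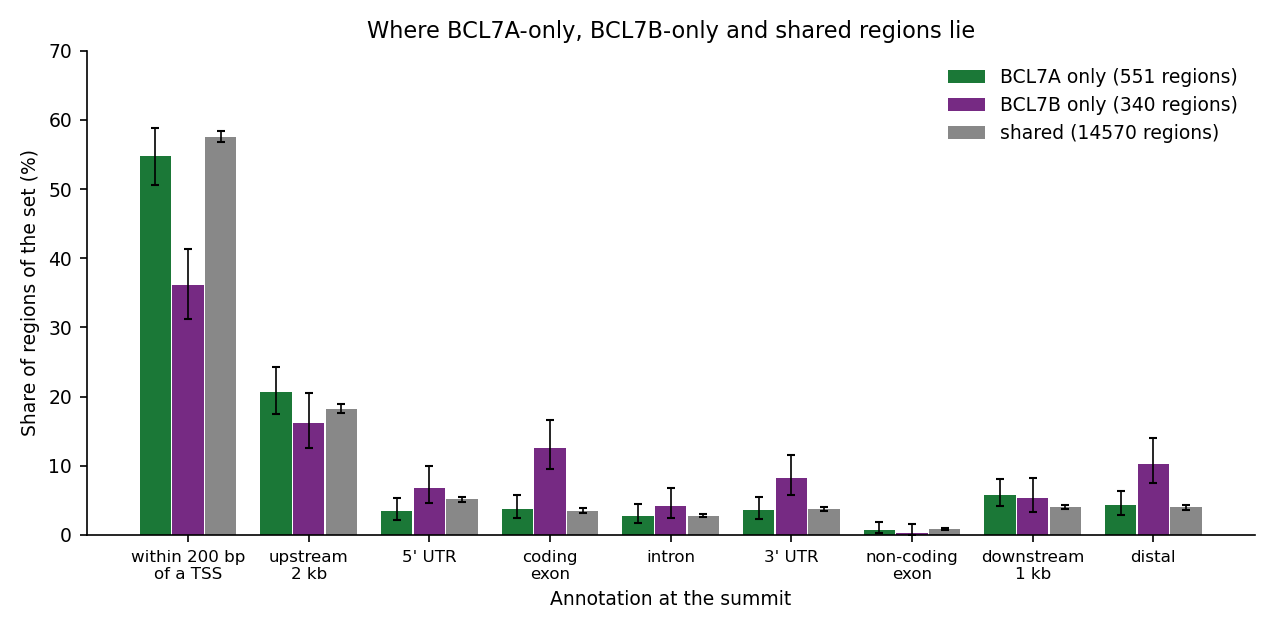
Share of BCL7A-only, BCL7B-only and shared regions (vertical axis, percent) by the annotation at the summit (horizontal axis), with bars that start at 0 and 95% Wilson intervals that cover counting error only. The purple bars of BCL7B-only regions are lower near TSSs, at 36.2%, and higher in coding exons and at distal sites, at 12.6% and 10.3%, than the bars of the other sets.

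The strongest BCL7A-only region lay over the start of AT3G44570, annotated as a retrotransposon protein. It stood at percentiles 99.1 and 95.1 in the BCL7A libraries and at 99.8 and 99.8 in the BCL7A brm-1 libraries. No peak lay there in the BCL7B, BCL7B brm-1 or BRM libraries, while replicate 2 of the BRM group with bcl7a and bcl7b had one at 12.9. This site was thus among the top peaks of every BCL7A library and absent from every BCL7B library. The BCL7A groups with and without BRM carried the same transgene, so a trait of that plant line and the protein cannot be told apart here. Next by rank was a distal site on chromosome 3, at -8364 bp from the TSS of the pseudogene AT3G41345, at percentiles 83.7 and 86.1 for BCL7A. It was a BCL7A-only region in plants with BRM, yet in BCL7B brm-1 it reached percentiles of 94.1 and 92.2.

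Below these, the highest ranked BCL7A-only regions sat mostly within 200 bp of a TSS, as did 54.8% of all BCL7A-only regions. At AT3G16310, whose window with site II is printed above, the percentiles were 65.8 and 63.0, and at UKL5, for a uridine kinase-like enzyme of pyrimidine salvage, they were 53.9 and 64.3. AT4G38020, for an RNA methyltransferase of the SpoU family, stood at 64.6 and 47.1, and AT4G12740, for a DNA glycosylase of base excision repair, at 69.5 and 41.4. None of these 4 sites had a peak in both BRM libraries, and all 4 had peaks in all brm-1 libraries of both proteins. The uncharacterized gene AT1G50730 (48.6 and 60.4), the ribosomal protein gene AT4G28360 (43.7 and 61.7) and the nascent polypeptide-associated complex gene AT1G73230 (60 and 45.1) also had no peak in BRM replicate 2, and among them only AT1G73230 had one in BRM replicate 1, at 7.04. CPL2, a phosphatase for the tail of RNA polymerase II, differed from them. Its BCL7A-only peak, at -1517 bp from the TSS, stood at percentiles 50 and 58.7 for BCL7A and at 95 and 94.7 in the BRM libraries. A lipid-transfer protein gene, AT3G18280 (52.6 and 50.6), had BRM peaks too, at 37.6 and 55.9. Among regions without a TSS within 2 kb, those nearest to ABC4, for a prenyltransferase of phylloquinone synthesis, and to MIR426 ranked next, at 42.4 and 40.8 and at 36.4 and 37.2. Of these 13 regions, 3 had a peak in both BRM libraries, 12 in both BCL7A brm-1 libraries and 8 in both BCL7B brm-1 libraries. The whole BCL7A-only set had peaks at 52.1% and 51.2% in the single BRM libraries. Its shares were 72.2% and 71.0% in BCL7A brm-1 and 37.9% and 36.1% in BCL7B brm-1.

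Among the highest ranked BCL7B-only regions, most had a peak of BRM, as did 72.4% and 75.3% of all BCL7B-only regions in the 2 BRM libraries. At AT2G10940, for a lipid-transfer protein, a region of 1361 bp over the TSS stood at percentiles 67.0 and 80.8 for BCL7B, with BRM at 65 and 55.9. MCA2, for a component of calcium entry on stretch, followed at 75.1 and 53.3, with weak BRM peaks at 7.04 and 24. A pair of UDP-glycosyltransferase genes carried BCL7B-only peaks inside coding exons, UGT84A3 of phenylpropanoid metabolism at 61.9 and 66.3 and AT5G05890 at 43.2 and 51.9. Both had BRM peaks, which at UGT84A3 stood at 81.5 and 85.8 and at AT5G05890 at 48.6 and 44.6. None of these 4 sites had a peak in BCL7B brm-1, and only MCA2 had a peak in both BCL7A brm-1 libraries. An intronic site of the ubiquitin-conjugating enzyme gene ATUBC2-1 (40.4 and 69.8), an upstream site of the uncharacterized gene AT4G12485 (63.9 and 54.9), and the starts of the receptor-like kinase gene AT4G11521 (62.5 and 40.4) and of the aspartyl protease gene AT1G79720 (60.6 and 39.9) also had BRM peaks in both libraries.

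AIL6, an AP2-type transcription factor of meristems, was an exception, with a BCL7B-only peak, at -1520 bp from its TSS, of percentiles 46.9 and 59.0, no peak in either BRM library, and peaks at 42.1 and 41.5 in BCL7B brm-1. The F-box gene AT3G49520 (47.9 and 47.4) likewise had no BRM peak and kept peaks in BCL7B brm-1, at 31.8 and 61.0. The strongest BCL7B-only regions with no TSS within 2 kb had as their nearest genes LUL3, for a RING-type protein (47.9 and 51.2), GA2OX8, for an oxidase that inactivates gibberellins (50.9 and 35.3), and the esterase gene AT2G40250 (46.1 and 34.0). Of the 13 BCL7B-only regions named, 10 had a peak in both BRM libraries, 2 in both BCL7B brm-1 libraries and 6 in both BCL7A brm-1 libraries. The whole BCL7B-only set had peaks at 72.4% and 75.3% in the single BRM libraries. Its shares were 22.6% and 24.4% in BCL7B brm-1 and 42.6% and 42.6% in BCL7A brm-1.

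Across whole sets, BRM was present more often where BCL7B alone had a peak. BRM peaks overlapped 72.4% and 75.3% of BCL7B-only regions in the 2 BRM libraries, 52.1% and 51.2% of BCL7A-only regions, and 83% and 83.5% of shared regions. BCL7B-only regions exceeded BCL7A-only regions by 20.3 and 24.1 points, and the values of the 2 BRM libraries did not overlap between the sets. The mean of 22.2 points was 12.2 without BCL7B replicate 1 and 13.5 without BCL7B replicate 2. The same order held for summits within 200 bp of a TSS, with BRM peaks at 71.5% and 74.0% of BCL7B-only and at 49.7% and 47.0% of BCL7A-only regions, and elsewhere, with 72.8% and 76.0% against 55.0% and 56.2%. It also held among regions whose mean percentile over the 2 libraries of their protein was 20 or below. The shares there were 77.4% and 77.8% against 59.6% and 59.3%. Where a BRM peak overlapped, its percentile in the BRM lists was also higher at BCL7B-only regions, with a median of 66.9 and 67.1, than at BCL7A-only regions, with 33.1 and 37.1. At shared regions these medians were 66.9 and 67.1 as well. Each percentile is that of the strongest BRM peak sharing 1 bp or more with the region, wherever its summit lay. BRM peaks were broad, with median widths of 808 and 823 bp. The percentile need not be the level at the BCL7 summit, here or at the named regions. In the pBRM:BRM-GFP brm-1 plants that also carried the bcl7a and bcl7b mutations, BRM peaks overlapped 71.8% and 76.8% of BCL7B-only and 42.6% and 49.5% of BCL7A-only regions. BRM lists were made with a looser limit than the BCL7 lists, and the part of that limit in these shares was not tested.

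The brm-1 libraries, which did not define the sets, were used to ask whether the sets keep their protein without BRM. BCL7A-only regions had a peak in 72.2% and 71.0% of cases in the BCL7A brm-1 libraries and in 37.9% and 36.1% in the BCL7B brm-1 libraries. BCL7B-only regions had a peak in 42.6% and 42.6% of cases in BCL7A brm-1 and in 22.6% and 24.4% in BCL7B brm-1. Without BRM, BCL7B-only regions were thus found more often in the lists of BCL7A than in those of BCL7B. For shared regions the shares were 96.0% and 95.7% in BCL7A brm-1 and 84.8% and 86.2% in BCL7B brm-1. The share of BCL7A-only regions exceeded that of BCL7B-only regions by 29.6 and 28.3 points in the BCL7A brm-1 libraries and by 15.3 and 11.7 points in the BCL7B brm-1 libraries. These differences did not overlap, and their means differed by 15.5 points with p = 0.333 by an exact permutation test (two-sided), again the lowest p within reach. The second deposited lists held fewer intervals, 11204 per BCL7A library and 11281 per BCL7B library. With them, an alternative chosen after seeing the data, the sets shrank to 44 BCL7A-only and 34 BCL7B-only regions. The difference of 15.5 points then turned to -18.0 points.

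Few regions kept their pattern in full. Of the BCL7A-only regions, 119 (21.6%) had a peak in both BCL7A brm-1 and in no BCL7B brm-1 library, and 0 had the reverse. Of the BCL7B-only regions, 3 (0.882%) had a peak in both BCL7B brm-1 and in no BCL7A brm-1 library, and 45 (13.2%) had the reverse. In all 4 brm-1 lists stood 122 BCL7A-only and 35 BCL7B-only regions. In none of them stood 85 BCL7A-only (15.4%) and 146 BCL7B-only regions (42.9%), beside 2.09% of shared regions. BCL7B brm-1 lists were shorter than the others, with 14922 and 15300 nuclear peaks against 18837 and 18870 for BCL7A brm-1, and the part of this length in the shares was not tested.

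**Figure D2:**
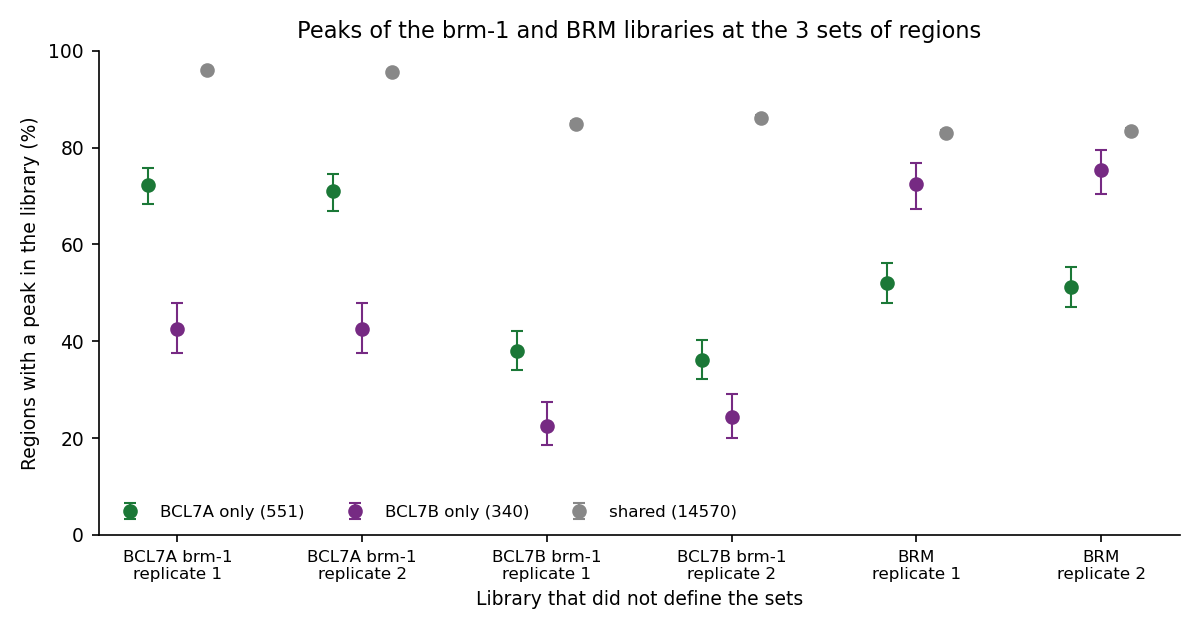
Share of BCL7A-only, BCL7B-only and shared regions that a peak of another library overlapped (vertical axis, percent), for each of 6 libraries that did not define the sets (horizontal axis), with 95% Wilson intervals that cover counting error only and are smaller than the points for shared regions. Green points (BCL7A-only) lie above purple points (BCL7B-only) in all 4 brm-1 libraries, for example at 72.2% against 42.6%, and below them in both BRM libraries, at 52.1% against 72.4% and 51.2% against 75.3%.

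Shared regions were compared by the percentile of each library, to ask which sites lean to either protein where both are present. The difference, BCL7A minus BCL7B in percentile points, had a median of 0.65 over the 14570 regions. Both BCL7A libraries ranked above both BCL7B libraries at 3639 regions (25%), and both BCL7B libraries ranked above both BCL7A libraries at 2846 regions (19.5%). These counts depend on the scale, since with percentiles taken among the shared regions alone they were 3203 and 3214, with a median difference of 0.02 points. A difference above 20 points in either direction was found at 1446 regions and one above 40 points at 48. With limma, 0 regions (0%) were called higher for BCL7A and 0 (0%) for BCL7B at a Benjamini-Hochberg adjusted p under 0.05. The lowest adjusted p was 0.261, and 1050 and 757 regions had an unadjusted p under 0.05 in the 2 directions, against 861 and 893 with percentiles among the shared regions and 952 and 957 on quantile-normalised log2 fold enrichment. With this number of libraries the test had little reach, since in simulated data it recovered 0% of shifts of 20 or 40 points and 74% of shifts of 60 points. On log2 fold enrichment after quantile normalisation limma called 20 regions for BCL7A and 27 for BCL7B, and without BCL7B replicate 1 or 2 it called 115 and 144 regions for BCL7A and 27 and 25 for BCL7B. The named regions that follow are therefore descriptions.

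Percentiles of replicates correlated with Pearson r = 0.880 for BCL7A and 0.888 for BCL7B, and those of different proteins with r = 0.840 to 0.845, across 14570 regions that are not independent replicates. The difference between the proteins in replicate 1 correlated with that in replicate 2 at r = 0.258. Most of the spread in the difference at a single region was thus not shared by the libraries, although a part of it was.

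At the shared regions that leaned most to BCL7A, most summits lay near a TSS, as did 57.6% of the summits of all shared regions. The largest difference, 49.8 points, lay at a distal site nearest to the pseudogene AT1G61830, with percentiles of 81.5 and 58.9 for BCL7A and 8.41 and 32.3 for BCL7B. AT5G45560, for a lipid-binding protein with PH and START domains, had 60.5 and 61.7 against 19.3 and 5.05 at its start. AT3G49640, for an aldolase-type enzyme, had 60 and 65.6 against 16.9 and 11.4, with site II in its window. In each of these 3 the lower BCL7A library stood clear of the higher BCL7B library by more than 20 points. The promoter of RPN5B, printed above, had 70 and 63.3 against 11.5 and 26.4, and that of ATMIN7 had 61.4 and 67.0 against 19.3 and 19.1. CDC25, for a phosphatase of the rhodanese family, had 66.0 and 53.4 against 20.2 and 2.26. BKI1, the inhibitor of the brassinosteroid receptor BRI1, had 72.3 and 55.1 against 5.41 and 27.0 at a site downstream of the gene. Its difference of 47.5 points stood beside one of 52.2 points in the brm-1 libraries, which were not used to choose it. Other regions named as leaning to BCL7A differed less in brm-1, by 35.9 points at AT5G49680 and 15.7 at AT5G45560. The values were 7.9 at RPN5B, 5.4 at ATMIN7, 4.0 at CDC25, -5.0 at AT3G49640 and -10.7 at AT1G06720. The brm-1 median over all shared regions in the 4 brm-1 lists was 5.16 points. AT1G61830 and GSL11 were not in all of these lists.

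The list closed with GSL11, for a callose synthase-type enzyme (64.6 and 77.8 against 14.7 and 36.3), AT1G06720, for a P-loop NTPase (80.7 and 67.0 against 14.7 and 42.4), and a distal site of AT5G49680, for a SABRE-like protein (55.7 and 77.0 against 4.42 and 39.0). Of these 10 regions, 7 had their summit within 200 bp of a TSS, 3 held site II and 4 had a peak in both BRM libraries. Over all 14570 shared regions, 57.6% had such a summit, 21.2% held site II and 11496 had a peak in both BRM libraries. Their adjusted p ranged from 0.26 to 0.27 in limma.

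At the shared regions that leaned most to BCL7B, most summits lay away from a TSS. Nearly all had a peak in both BRM libraries, where 83% and 83.5% of all shared regions had one. The largest difference, -59.5 points, lay at the long noncoding RNA gene AT5G08085, where BCL7A stood at 10.2 and 5.94 and BCL7B at 64.8 and 70.3. CRK5, a cysteine-rich receptor-like kinase gene, had 30.1 and 26.7 for BCL7A and 79.2 and 87.3 for BCL7B at the downstream site printed above. AT1G62510, for a lipid-transfer protein, had 8.32 and 6.54 against 55.8 and 63.0. The libraries of either protein lay close together at these sites and far from those of the other. AT1G52200, for a PLAC8 protein like MCA2, had 38.6 and 10.2 against 78.1 and 69.8, and AT2G38180, for an esterase of the SGNH family, had 33.8 and 19.1 against 76.7 and 74.5. ABCG34, for a transporter of the pleiotropic drug resistance type, had 8.49 and 37.9 against 66.0 and 70.4 in a coding exon. The BRM peaks that overlapped this region stood at 96.6 and 96.5. XYL1, for the alpha-xylosidase that trims xyloglucan of the cell wall, had 9.80 and 13.0 against 55.0 and 57.1 at -1063 bp from the TSS. In brm-1 the differences were -29.9 points at AT2G38180, -15.9 at AT5G08085, -6.8 at CRK5, 9.0 at XYL1 and 46.8 at AT1G52200. The other regions that leaned most to BCL7B were not in all 4 brm-1 lists.

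The others were AT3G25590, for a protein annotated as linker histone-like (23.0 and 15.3 against 63.2 and 70.3), the uncharacterized gene AT1G30250 (27.8 and 21.9 against 65.5 and 75.1) and the pseudogene AT2G29280 (44.8 and 43.3 against 89.0 and 89.1). Of these 10 regions, 3 had their summit within 200 bp of a TSS, 0 held site II and 9 had a peak in both BRM libraries. Of all 14570 shared regions, 57.6% had such a summit, 21.2% held site II and 11496 had a peak in both BRM libraries. Their adjusted p was 0.26 in limma.

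**Figure D3:**
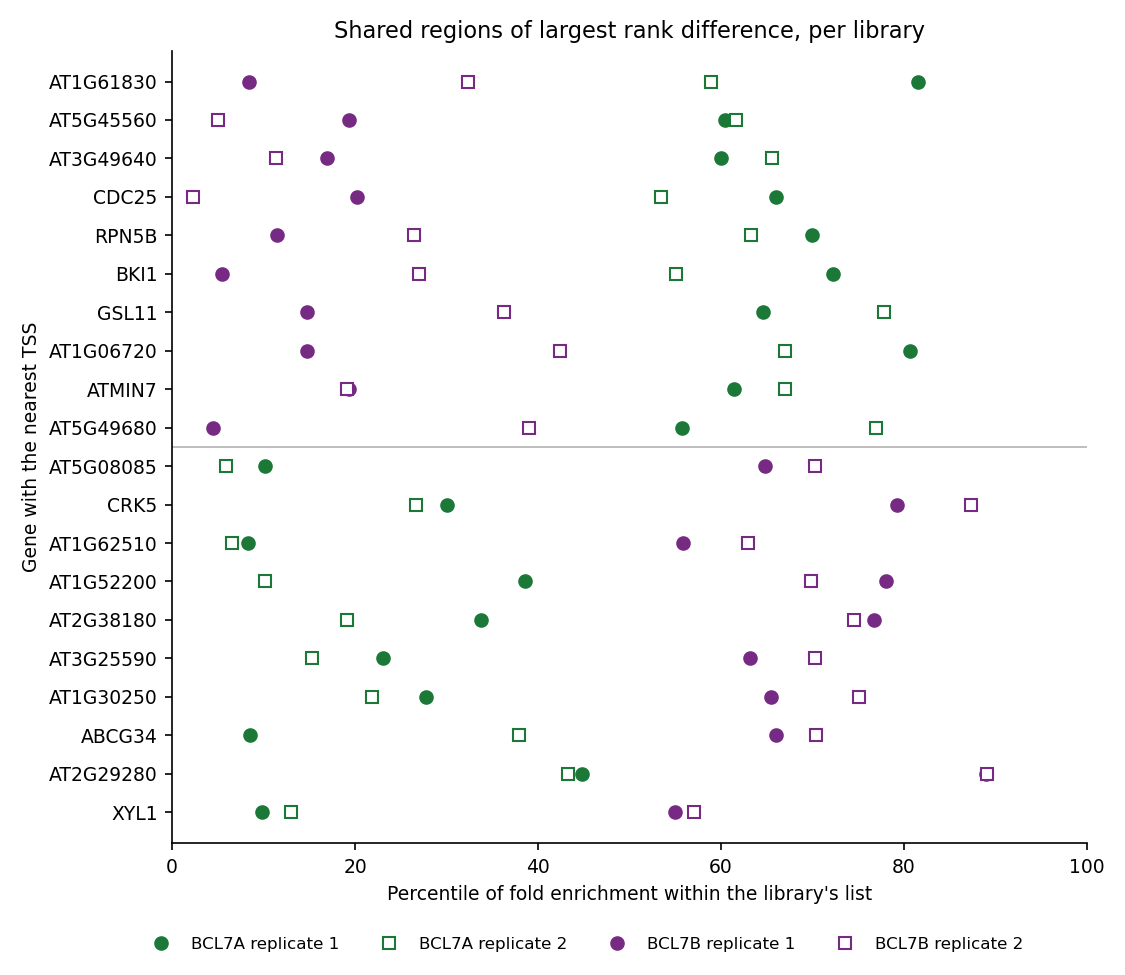
Percentile of fold enrichment within each library (horizontal axis) at the 10 shared regions of largest difference in each direction (vertical axis, by the gene with the nearest TSS), with filled circles for replicate 1 and open squares for replicate 2. The regions were chosen for this pattern, so the gap between green and purple is a description, and libraries of 1 protein can lie far apart too, as at AT5G49680 where BCL7B stood at 4.42 and 39.0.

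Shared regions that leaned to BCL7A and to BCL7B differed in the features that also set apart BCL7A-only from BCL7B-only regions. Of the 3639 regions with both BCL7A libraries higher, 63.7% had their summit within 200 bp of a TSS and 76.6% and 76.8% had a peak in the BRM libraries. Of the 2846 regions with both BCL7B libraries higher, 49.3% had a summit near a TSS and 92.4% and 92.2% had BRM peaks. Site II stood in 29.9% of the former and 10.8% of the latter windows, and the GA repeat in 13.2% and 20.4%. The order was that of the BCL7A-only and BCL7B-only sets for each of these features, in regions that those sets do not hold, though in the same libraries. Among windows within 200 bp of a TSS, site II stood in 34.4% of those that leaned to BCL7A and 11.8% of those that leaned to BCL7B, beside 25.3% of all shared windows there.

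Grouped by these features, shared regions had the following levels in each library. The 1801 shared regions with no BRM peak had median percentiles of 52.2 and 51.7 for BCL7A and 42.7 and 44.3 for BCL7B, a median difference of 5.88 points, and 35.8% of them had both BCL7A libraries higher against 8.44% with both BCL7B libraries higher. At the 11496 regions with BRM peaks in both libraries the medians were 62.0 and 61.7 against 62.0 and 62.6, with a median difference of -0.04. BCL7A thus ranked above BCL7B where BRM had no peak, and level with it where BRM had one. With percentiles among the shared regions the median differences were 4.69 and -0.70 points. The 3094 regions with site II had medians of 62.7 and 63.0 for BCL7A against 56.7 and 57.1 for BCL7B, a median difference of 4.05, while the 11476 without it had 58.5 and 58.1 against 57.8 and 58.9, a median difference of 0.01. The direction was the other way in coding exons, where 514 regions had medians of 51.2 and 48.3 for BCL7A and of 53.3 and 53.9 for BCL7B, with a median difference of -3.48. There 33.3% had both BCL7B libraries higher and 15.0% both BCL7A libraries.

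The features were not independent of each other, as BRM peaks overlapped 69.2% and 71.3% of shared regions with site II and 86.8% and 86.8% of those without. Within 200 bp of a TSS the median difference was 4.89 points with site II and 0.56 without, and elsewhere it was 2.19 with site II and -0.69 without. The share that each feature has in the difference was not tested.

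**Figure D4:**
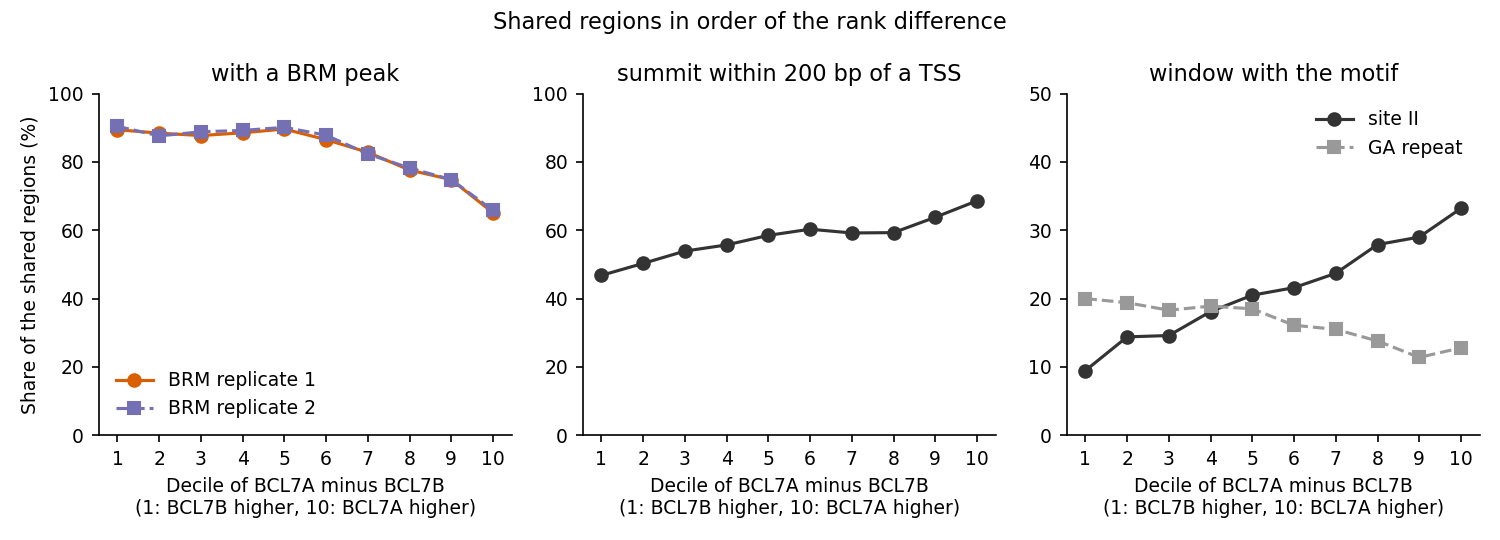
Shared regions in 10 groups of 1457 by the difference BCL7A minus BCL7B (horizontal axis, from decile 1 where BCL7B ranked higher to decile 10 where BCL7A did), with the share in percent (vertical axes) of regions that have a BRM peak, have a summit within 200 bp of a TSS, or hold a motif. From the first to the last decile the share with a peak in BRM replicate 1 goes from 89.4% to 65.1%, that near a TSS from 46.8% to 68.6%, that with site II from 9.47% to 33.2% and that with the GA repeat from 20.0% to 12.8%.

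The lean of shared regions with BRM present was next compared with their lean in brm-1. Of the 3639 regions that leaned to BCL7A, 3048 had a peak in all 4 brm-1 lists, and there 38.5% had both BCL7A brm-1 libraries higher and 13.5% both BCL7B brm-1 libraries. Of the 2161 regions that leaned to BCL7B and were in all 4 lists, 39.3% and 13.7% did so, and over all 11638 such regions 39.1% and 13.2%. In brm-1 both groups thus had shares close to those of all shared regions, whatever their lean with BRM present. Across these 11638 regions the difference with BRM present and that in brm-1 correlated at r = 0.041, while replicates of the brm-1 difference correlated at r = 0.354.

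Gene groups were then described through the gene with the nearest TSS within 2 kb. Over all genes 25.2% of 13380 shared regions leaned to BCL7A, 19.2% leaned to BCL7B, and the median difference was 0.68 points. In the 35 lists described, 0 shared regions were past the threshold of limma, so each list is given by its counts beside that background. Of all 18448 regions of genes, 2.72% were BCL7A-only and 1.52% BCL7B-only.

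At genes of translation more regions leaned to BCL7A than to BCL7B. Of 162 shared regions at genes annotated as ribosomal proteins, 54 (33.3%) had both BCL7A libraries higher and 17 (10.5%) both BCL7B libraries, with a median difference of 5.88 points. Their median percentiles were 55.3 and 52.2 in the BCL7A libraries and 44.1 and 44.3 in the BCL7B libraries, which did not overlap. At AT2G20450, for ribosomal protein L14, BCL7A stood at 88.3 and 71.8 and BCL7B at 29.0 and 56.6. AT3G11250, for a protein of the L10 family, had 83.2 and 71.0 against 52.7 and 23.5. Both held site II. AT3G26360, for a protein of the S21 family, had 78.2 and 68.3 against 46.9 and 19.1. Of all 250 regions of this list 11 (4.40%) were BCL7A-only and 2 (0.8%) BCL7B-only. Among the BCL7A-only ones, RPL34 stood at 6.57 and 29.8 and AT2G19750, for a protein of the S30 family, at 14.5 and 3.65, both within 200 bp of the TSS.

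Transfer RNA genes, which RNA polymerase III transcribes, had counts of the same order. Of their 218 shared regions, 93 (42.7%) had both BCL7A libraries higher and 20 (9.17%) both BCL7B libraries, with a median difference of 5.96 points and median percentiles of 59.3 and 59.5 against 49.4 and 51.8. A tRNA-Ile gene, AT2G22380, had 65.4 and 81.2 for BCL7A and 26.5 and 47.9 for BCL7B. A tRNA-Gly gene, AT5G66817, had 60 and 77.8 against 19.3 and 44.3. Reads at tRNA genes can be shared by near-identical copies, and how far the unique mapping of the study removed them was not tested. Of all 296 tRNA regions 10 (3.38%) were BCL7A-only and 2 (0.676%) BCL7B-only, near the shares over all genes. An example is the tRNA-Pro gene AT1G08950 at 18.1 and 45.6 for BCL7A. Core histone genes were nearer to the background, with 9 of 29 regions leaning to BCL7A and 4 to BCL7B. AT3G53650, a histone gene with site II, had 64.6 and 52.4 for BCL7A and 19.3 and 21.2 for BCL7B.

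At genes of photosynthesis more regions leaned to BCL7B. Of 39 shared regions at nuclear genes for photosystem and light-harvesting proteins, 14 (35.9%) had both BCL7B libraries higher and 4 (10.3%) both BCL7A libraries, with a median difference of -4.49 points. The median percentiles were 44.8 and 46.2 for BCL7A and 57.8 and 55.5 for BCL7B. LHCB2.1, an antenna protein of photosystem II, had 36.4 and 43.3 for BCL7A and 77.9 and 69.4 for BCL7B at its start. LHCB2.2, a near-identical copy with which reads could be shared, had 27.8 and 31.1 against 54.4 and 63.9. LHCA2, an antenna protein of photosystem I, had 10.6 and 12.4 against 57.0 and 20.2 at -1006 bp from the TSS. At LHCB2.1 and LHCB2.2 the libraries of the proteins were well apart, whereas at LHCA2 the BCL7B libraries themselves differed by more than the gap to BCL7A. No region of this list was BCL7A-only or BCL7B-only.

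Auxin and growth genes were mixed. SAUR genes, small auxin-induced genes of cell expansion, had 12 of 35 shared regions (34.3%) with both BCL7B libraries higher and 5 (14.3%) with both BCL7A libraries, and of all 56 regions 6 (10.7%) were BCL7B-only and 0 BCL7A-only. SAUR63 had 37.8 and 46.1 for BCL7A and 88.0 and 68.0 for BCL7B. The BCL7B-only SAUR regions were weak, such as AT1G56150 at 9.04 and 24.3 and AT1G16510 at 1.64 and 7.09. Growth-regulating factors with their coactivator AN3 had 4 of 7 regions leaning to BCL7B, among them GRF2 with 37.9 and 21.3 against 61.4 and 55.9 and AN3 itself with 57.0 and 47.1 against 59.5 and 80.2. Of the 8 regions of HD-ZIP III genes, regulators of leaf polarity, 4 leaned to BCL7B and 1 to BCL7A, for example ATHB-15 with 32.2 and 35.2 against 62.5 and 40.4. Aux/IAA repressors of auxin response had 5 of 23 in either direction, and 3 toward BCL7A and 7 toward BCL7B with percentiles among the shared regions. Of these, IAA5 leaned to BCL7A, with 76.3 and 71.8 against 36.0 and 30.2, and IAA7 to BCL7B, with 21.6 and 23.2 against 58.2 and 31.7. Auxin transport genes were split, with a weak BCL7A-only peak at PIN3 (4.16 and 3.76) and a shared region of PIN7 at 2.97 and 15.4 against 42.1 and 24.4.

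Families of transcription factors were described in the same way. MYB genes had 15 of 45 shared regions (33.3%) with both BCL7B libraries higher and 4 (8.89%) with both BCL7A libraries, and of all 65 regions 3 (4.62%) were BCL7A-only, at MYB55, MYB19 and MYB68, and 0 BCL7B-only. ERF genes of ethylene and stress response had 10 of 35 (28.6%) against 3 (8.57%), and of all 44 regions 3 (6.82%) were BCL7B-only. Of those, ERF8 stood at 2.63 and 19.6 and EBP at 0.975 and 10.2, both in coding exons, and ERF104 at 15.2 and 2.63 in its 5′ UTR. BRM peaks that overlapped the ERF104 region stood at 99.0 and 98.3, so very strong BRM peaks overlapped a weak peak of BCL7B alone. Their summits may lie elsewhere. RAP2.1, a shared region of the same list, had 46.7 and 50.6 for BCL7A and 78.1 and 77.7 for BCL7B. WRKY genes of defence had 8 of 41 regions (19.5%) leaning to BCL7B, as over all genes, and 4 (9.76%) to BCL7A. The largest differences were toward BCL7A, at WRKY53 with 35.2 and 42.8 against 4.89 and 4.17 and at WRKY60 with 89.5 and 87.2 against 62.5 and 49.9. NAC genes had 14 of 53 (26.4%) against 11 (20.8%), with NAC017, a regulator of signals from mitochondria, at 76.0 and 71.8 for BCL7A and 44.8 and 36.3 for BCL7B.

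**Figure D5:**
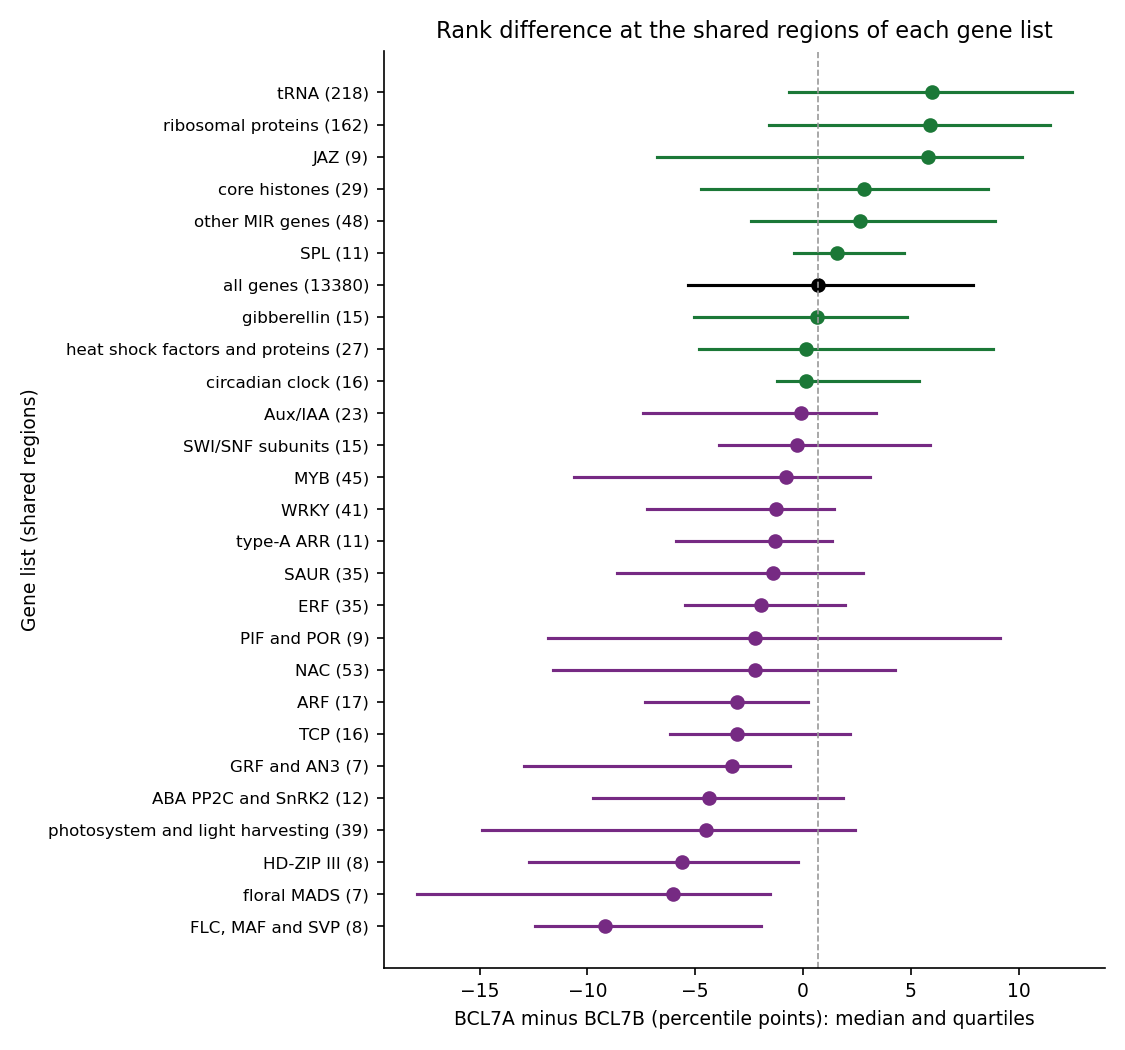
Difference BCL7A minus BCL7B in percentile points (horizontal axis) at the shared regions of each gene list (vertical axis, number of regions in parentheses), with points at the median and lines between the quartiles, green for a median above 0, purple for one below 0 and black for all genes, whose median of 0.68 is the dashed line. Transfer RNA and ribosomal protein genes lie to the right, at medians of 5.96 and 5.88, and photosystem and light-harvesting genes to the left, at -4.49, with quartile lines that are wide beside these medians.

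Genes of the vegetative phase change, for which BRM is known, were few. MIR156c, a source of the juvenile-phase microRNA miR156, had percentiles of 49.1 and 32.2 for BCL7A and 72.2 and 66.0 for BCL7B, a difference of -28.4 points with no overlap. MIR156a had 21.2 and 39.8 against 61.9 and 33.8, which overlapped. SPL genes, the targets of miR156, had 5 of 11 shared regions leaning to BCL7A and 1 to BCL7B, among them SPL14 with 62.5 and 67.6 against 44.2 and 58.5 and SPL10 with 96.3 and 95.7 against 92.7 and 88.2. MIR172e, of the adult-phase microRNA, had 27.4 and 33.8 against 20.4 and 8.97. Genes of SWI/SNF subunits had 4 of 15 regions leaning to BCL7A and 2 to BCL7B, which became 2 and 3 with percentiles among the shared regions. The largest difference of that list was at CHB3, for the subunit also called SWI3D, with 70.7 and 76.9 for BCL7A and 46.9 and 49.9 for BCL7B.

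Summit positions, which the choice of regions did not use, were compared along the direction of the gene with the nearest TSS. At 73.5% of shared regions the mean summits of the proteins lay within 50 bp of each other, and the median distance between these means was 27.0 bp. Between single replicates the median distance was 35 bp. Means of 2 libraries vary less than single libraries, so these distances are not on the same scale. With limma, 43 regions (0.295%) had the BCL7A summit further downstream and 56 (0.384%) the BCL7B summit, at an adjusted p under 0.05. These shifts ran from 292 to 1965 bp, far above the distance between replicates at most regions. In simulated data the summit fit recovered 17% of shifts of 300 bp, 75% of 600 bp and 87.5% of 1200 bp. Of its calls there, 4 of 38, 6 of 156 and 5 of 180 were false. At the uncharacterized gene AT1G74929 the BCL7A summits lay at 112 and 102 bp from the TSS and the BCL7B summits at -1855 and -1861 bp, a shift of 1965 ± 20.2 bp (SE, limma adjusted p = 0.0012). At UCP5, for a carrier of the inner mitochondrial membrane, the BCL7A summits lay at 1832 and 1912 bp and the BCL7B summits at 240 and 106 bp, a shift of 1699 ± 59.9 bp (SE, limma adjusted p = 0.0076). AT3G13040, for a MYB-like regulator, had BCL7A summits at 160 bp in both libraries and BCL7B summits at -953 and -1038 bp.

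In the other direction, GDPD2, for a phosphodiesterase of phospholipid turnover, had BCL7A summits at -1446 and -1418 bp and BCL7B summits at 25 and -10 bp from the TSS, a shift of -1440 ± 25.6 bp (SE, limma adjusted p = 0.0045). CYP86A4, for a cutin-forming hydroxylase, had BCL7A summits at -6 and -22 bp and BCL7B summits at 1219 and 1198 bp. AT4G17800, for an AT-hook protein, had them at -1262 and -1205 bp and at -153 and -70 bp. At each of these genes the libraries of a protein lay far closer to each other than to those of the other protein. Of the 43 regions with BCL7A further downstream, 20 had the BCL7A summits within 200 bp of a TSS and 4 the BCL7B summits, and of the 56 with BCL7B further downstream, 7 and 26 did. At 5 of the 6 named genes, all but AT3G13040, at least 1 library had more than 1 peak in the region, so a shift there can be a change in which peak is the strongest. The 6 were chosen as the largest shifts and their libraries lay apart, so leaving 1 library out could not turn the direction. The counts rested on few libraries, and of 31 values of the 6 named shifts under the alternatives all kept their direction and 7 were called. With BCL7A replicate 2, BCL7B replicate 1 or BCL7B replicate 2 left out 0 regions were called, without BCL7A replicate 1 there were 124 (52 of them among the 99), and 60 were called among regions with 1 peak in each library.

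The transgene loci were set apart, since added copies of a locus in the plants can raise its signal. The region over the start of AT4G22320, the BCL7A gene, at chr4:11794389-11796449, had percentiles of 73.8 and 60 for BCL7A and 27.5 and 14.3 for BCL7B. The region at the start of AT5G55220, beside the BCL7B gene AT5G55210, at chr5:22396961-22398023, had 69.2 and 31.9 for BCL7A and 97.3 and 95 for BCL7B. At both loci the tagged gene's own protein ranked higher, by 46.0 and 45.6 points, and BRM had no peak at the latter. ATCES1, for an alkaline ceramidase, lies next to the BCL7A gene and went the other way, with 51.8 and 67.3 for BCL7A and 78.1 and 87.8 for BCL7B. Added copies and occupancy cannot be told apart at these loci.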

How the data were processed

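Chromatin bound to GFP fusions of BCL7A and BCL7B was sequenced by the authors from Arabidopsis seedlings aged 14 days. Per the study's methods, reads were cleaned with fastp and aligned with Bowtie 2 to TAIR10, uniquely and perfectly mapped reads were kept, and peaks were called with MACS2, for which the submitters' notes name version 2.1.1. There is 1 list per library. Those notes name Bowtie and deepTools as well, without versions. Whether an input library entered the calls is not stated in the sources used here, and no list of GFP-free plants was analysed. The deposited peak lists hold the fold enrichment of each summit over its background (a ratio), which ranked the peaks, and −log10 p-values and −log10 q-values as MACS2 gave them for the authors' lists. The lowest −log10 q per list was 2.03 to 2.25 for BCL7 lists and 0.475 to 0.577 for BRM lists. A second, smaller set of intervals per library served only in 1 alternative, chosen after seeing the data.

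Of 20 samples, 8 (spike-in and MNase libraries) were not used. Depth was implied from the genome background in the lists, the genome size of 119667750 bp and the shortest peak as the fragment length, so it carries no interval. The methods name an extension of 200 bp, shorter than the shortest peaks, with which all implied depths would be higher. Python 3.11.15, numpy 2.4.6, pandas 2.3.3, scipy 1.17.1, matplotlib 3.10.9, R 4.3.3 and limma 3.58.1 were used. Peaks of the 5 nuclear chromosomes were merged where they shared 1 bp, and the transgene loci (3 kb upstream to 1 kb downstream) were set apart. Percentile ranks of fold enrichment, and summit positions along the gene, were fitted over all 14570 shared regions with limma (trended variance, robust) and Benjamini-Hochberg adjustment at 0.05. The rank and summit fits were tested on simulated data. Library numbers match between the groups only as numbers, since deviations of libraries with the same number did not go together (r = -0.011), so the fits have no pairing. Intervals on shares cover counting error only.

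Named regions were the 10 BCL7A-only and 10 BCL7B-only regions of highest mean percentile with a TSS within 2 kb and the first 3 without, the 10 shared regions of largest difference in each direction, the 3 largest summit shifts per direction, and the members of each list with the largest differences or with a region of 1 protein alone. Sequences came from RefSeq's TAIR10.1 genome. The members and gene lists were chosen with earlier results of these data known. Alternatives were other overlap rules, limits on peaks, scales, fits and libraries left out.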

Additional observations from a re-analysis of the deposited data

Results flagged for a closer look

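At the start of AT1G06720, for a P-loop NTPase, the difference BCL7A minus BCL7B was 45.2 points with BRM and -10.7 points in brm-1, where BCL7A stood at 74.5 and 69.7 and BCL7B at 86.4 and 79.3. At AT1G52200, for a PLAC8 protein, it was -49.5 points with BRM and 46.8 points in brm-1, where BCL7A stood at 56.9 and 55.2 and BCL7B at 5.95 and 12.5. At both genes all libraries of a protein lay on opposite sides of the other protein with and without BRM, and the change between the conditions was not tested. Peaks on the chloroplast and mitochondrial genomes, which the comparison left out, numbered 50 and 43 in the BCL7A lists and 41 and 43 in the BCL7B lists, and no control list was analysed.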

How the results depend on the processing

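The excess of nuclear peaks for BCL7A turned to -1364 among peaks of at least 3-fold enrichment. BCL7B-only regions numbered 547 with summits matched within 200 bp, 534 when both intervals had to overlap by 50% or more and 786 with peaks of 3-fold enrichment, where BCL7A-only regions numbered 164. The second lists left 44 and 34. With 1 library left out, BCL7A-only regions ranged from 1020 to 1227 and BCL7B-only regions from 751 to 788, since 1 library of that protein then decided presence and absence. The difference in BRM share of 22.2 points was 17.1 under either other overlap rule, 31.1 with a −log10 q of at least 5 in every list, 26.7 with that limit on presence only, 28.7 with 3-fold peaks, 33.6 with the second lists and 12.2 to 25.3 with 1 library left out, always in the same direction. The TSS difference of 18.6 points was 10.3 and 11.4 under the other overlap rules, 30.9 with the second lists and 6.81 to 19.8 with 1 library left out. In the second lists the mean share of BCL7A-only regions with a peak in the BCL7A brm-1 libraries was 88.6%. The mean share of BCL7B-only regions with a peak in the BCL7B brm-1 libraries was 19.1%. In the brm-1 libraries of the other protein, BCL7A-only regions had shares of 63.6% and 61.4% and BCL7B-only regions of 64.7% and 61.8%. The excess of BCL7A-only over BCL7B-only shares was thus smaller in BCL7A brm-1 than in BCL7B brm-1, by -18.0 points, which reversed the contrast. Rank calls numbered 20 for BCL7A and 27 for BCL7B on quantile-normalised log2 fold enrichment, 0 to 144 and 0 to 27 with 1 library left out, and 0 in the other rank fits. Why fewer libraries gave more calls was not tested. Summit calls numbered 60 among regions with a single peak per library and 0 to 124 with 1 library left out. With the replicate block, in which only 2 numbers pair by name, there were 0 rank calls (1063 and 778 at an unadjusted p under 0.05, beside 861 and 893 with percentiles among the shared regions) and 0 summit calls (lowest adjusted p = 0.0573 in limma). The 219 values of the named shared regions under the alternatives all kept their direction, and 29 of them were called. Those regions were chosen with libraries of the proteins that do not overlap. Leaving 1 library out could therefore not turn them, and the agreement in direction is no support. Weak regions near the detection limit, 2 libraries per protein and implied depths limit all of the counts given here.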

Other observations

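Regulators of flowering were split. Of 8 shared regions at FLC, its MAF relatives and SVP, which repress flowering, 3 had both BCL7B libraries higher and 2 both BCL7A libraries. At SVP BCL7A stood at percentiles 55.6 and 55.4 and BCL7B at 84.6 and 63, and at FLC, a weak site, BCL7A stood at 2.17 and 9.48 and BCL7B at 23.4 and 18.5. MAF4 had the other order, with 66.4 and 61.1 for BCL7A and 40.4 and 44.3 for BCL7B. Of 7 regions at floral MADS genes 3 leaned to BCL7B, among them SEP1, of floral organ identity, with 78.6 and 75.3 against 89.6 and 92.5.

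Light signalling genes had shared regions in both directions. Of 9 at PIF and POR genes, 4 leaned to either protein, and 3 to BCL7A and 4 to BCL7B with percentiles among the shared regions. PIF3, a transcription factor that phytochrome inactivates, had 39.1 and 34.5 for BCL7A and 53.2 and 66.9 for BCL7B, and PORB, of chlorophyll synthesis, had 38.2 and 42.2 against 59.8 and 68.3. POR C had 23.7 and 15.5 against 9.31 and 2.24. Among 16 regions of clock genes, 5 leaned to BCL7A, such as PRR9 with 53.5 and 44.3 against 35.4 and 40.9, and 2 to BCL7B, such as ZTL with 74.5 and 73.1 against 84.1 and 85.4, but 4 leaned to either protein with percentiles among the shared regions. Of 9 regions at JAZ repressors of jasmonate response 3 leaned to BCL7A and 1 to BCL7B. All of these were below the threshold of limma, and none was independent of the choice by size within its list.

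The meristem gene KNAT1 had no shared region and a BCL7A-only peak at percentiles 25.6 and 39.3, 71 bp from its TSS, that no brm-1 library held. GA20OX1, of gibberellin synthesis, had a BCL7B-only peak at -1254 bp from the TSS at 21.8 and 36.3, which BCL7A brm-1 held at 27.1 and 34.4 and BCL7B brm-1 did not. At MIR163 BCL7A stood at 73.1 and 67 and BCL7B at 19.3 and 47.9.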
